A study of Mus musculus with 6 samples.

Results

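Imprinted genes are transcribed from 1 parental copy, and several carry microRNAs that are cut from the same transcripts or from neighbouring ones. Mest, Igf2, H19 and the Gnas region each hold such hairpins outside the better-known Dlk1-Dio3 and Sfmbt2 clusters. Igf2 encodes a fetal growth factor, H19 is a noncoding RNA that restrains growth in mouse, Mest is a paternally expressed gene active in embryonic mesoderm, and the Gnas locus gives rise to a G-protein subunit and to antisense transcripts such as Nespas. A mature microRNA is cut from 1 arm of a short hairpin, and its bases 2 to 8, the seed, guide it to target mRNAs.

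The members were chosen by name, as the rows of the deposited count table called miR-335 (Mest), miR-483 (Igf2), miR-675 (H19), miR-296 or miR-298 (Gnas region), with either arm or none named. The rule matched 7 of the 1028 rows of the table, from 4 of the 5 hairpins, and 5 of the 7 passed the filter on low counts. Both arms of miR-335, miR-298 and miR-483 and the 3p arm of miR-296 were measured. No row matched miR-675 or the 5p arm of miR-296, which are not analysed here.

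Small RNAs were sequenced from 3 libraries of an Hdac3 knockout (KO), in which a lentivirus carrying an Hdac3 sgRNA was used for CRISPR/Cas9 editing, and 3 libraries that received an empty-vector lentivirus (EV). Both groups are the same cultured mouse epicardial cell line (named MCEC in the labels), so lentiviral transduction is common to both. Hdac3 is a histone deacetylase of repressor complexes, its mRNA is not read by these libraries, and the labels say neither whether the KO cells are a pool or 1 clone nor whether each replicate was a culture of its own. The p-values below therefore set the difference between KO and EV against the spread among these libraries, which may be technical.

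Totals ran from 12720548 to 13412774 counts in KO and from 11824881 to 12806873 in EV, and miR-21a-5p alone took 63.0% to 70.1% of the counts. Levels are given as CPM (counts per 1000000, after multiplying each library's total by its TMM factor), where 1 read was worth 0.0637 to 0.0892 CPM. EV 1 had the highest TMM factor, 1.23, against 0.919 to 1.04 in the other 5 libraries, so CPM in EV 1 are lower relative to the plain counts. EV 3 and KO 2 stood apart in the red-blood-cell microRNA miR-451a, at 62.7 CPM in KO 2 and 54.7 CPM in EV 3, against 0.243 and 0.573 CPM in KO 1 and KO 3 and 0.892 and 2.45 CPM in EV 1 and EV 2. The 6 listed mesenchymal microRNAs, among them miR-21a-5p, miR-143-3p and miR-214-3p, had reads in every library. The 3 listed white-blood-cell microRNAs summed to 0.081 to 0.319 CPM in KO and 0 to 0.735 CPM in EV. None of these 3 had reads in every library. The 2 listed neural microRNAs summed to 15.2 to 57.8 CPM in KO and 11.3 to 52.1 CPM in EV.

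The mature sequences of the members, from RefSeq on GRCm38.p6, show that no seed is shared among them. They are given in 5′ to 3′ direction with the seed in capitals:
miR-335-5p: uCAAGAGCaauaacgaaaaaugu
miR-335-3p: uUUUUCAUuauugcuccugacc
miR-298-5p: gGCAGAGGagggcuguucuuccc
miR-298-3p: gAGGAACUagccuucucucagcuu
miR-296-3p: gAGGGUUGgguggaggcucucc
miR-483-5p: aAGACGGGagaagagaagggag
miR-483-3p: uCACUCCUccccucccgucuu

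All 7 members had a sequence in the RefSeq table, and each maps to 1 locus there. None of the 849 rows of the count table that could be matched to a RefSeq sequence shares a seed with a member, and no other mature microRNA of that table shares the first 16 bases with one. The arms of miR-335 are poor in G and C (30.4% for the 5p arm and 36.4% for the 3p arm), whereas miR-298-5p and miR-296-3p hold 65.2% and 68.2% and miR-483-3p 61.9%.

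The hairpins lie at 3 places in the mouse genome. Mir335 is on the plus strand of chromosome 6 at 30741299 to 30741396, in an intron of all 7 overlapping Mest transcripts of GENCODE M21. Mir483 is on the minus strand of chromosome 7 at 142654924 to 142654996, in an intron of Igf2 and on its strand. Mir298 (174267504 to 174267585) and Mir296 (174267047 to 174267125) are on the minus strand of chromosome 2, 378 bp apart and outside annotated host genes. Mir298, the nearer of the pair, lies 13651 bp beyond the end of Nespas, which runs on the same strand. The hairpin of miR-335 is shown because both of its arms were abundant, and that of miR-298 because nearly all of its reads came from 1 arm. Capitals mark the arms that were counted:
Mir335: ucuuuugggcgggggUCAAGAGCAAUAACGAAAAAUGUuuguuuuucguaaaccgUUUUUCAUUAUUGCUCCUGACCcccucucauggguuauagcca
Mir298: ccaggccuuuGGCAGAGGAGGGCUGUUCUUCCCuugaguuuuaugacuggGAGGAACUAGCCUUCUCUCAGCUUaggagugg

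In the epicardial cells the Mest and Gnas-region microRNAs were expressed at moderate levels, and the Igf2 microRNAs were near the detection limit. Averaged over the 6 libraries, miR-335-3p stood at 159 CPM (rank 100 of the 1028 rows), miR-296-3p at 103 CPM, miR-298-5p at 70.8 CPM and miR-335-5p at 31.2 CPM. These 4 kept this order in each of the 6 libraries. miR-483-3p, miR-483-5p and miR-298-3p followed at 1.08, 0.643 and 0.193 CPM, and they did not keep their order in every library. CPM of mature microRNAs contain no length term, and adaptor ligation favours some sequences over others, so the order describes reads more than molecules.

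**Figure D1:**
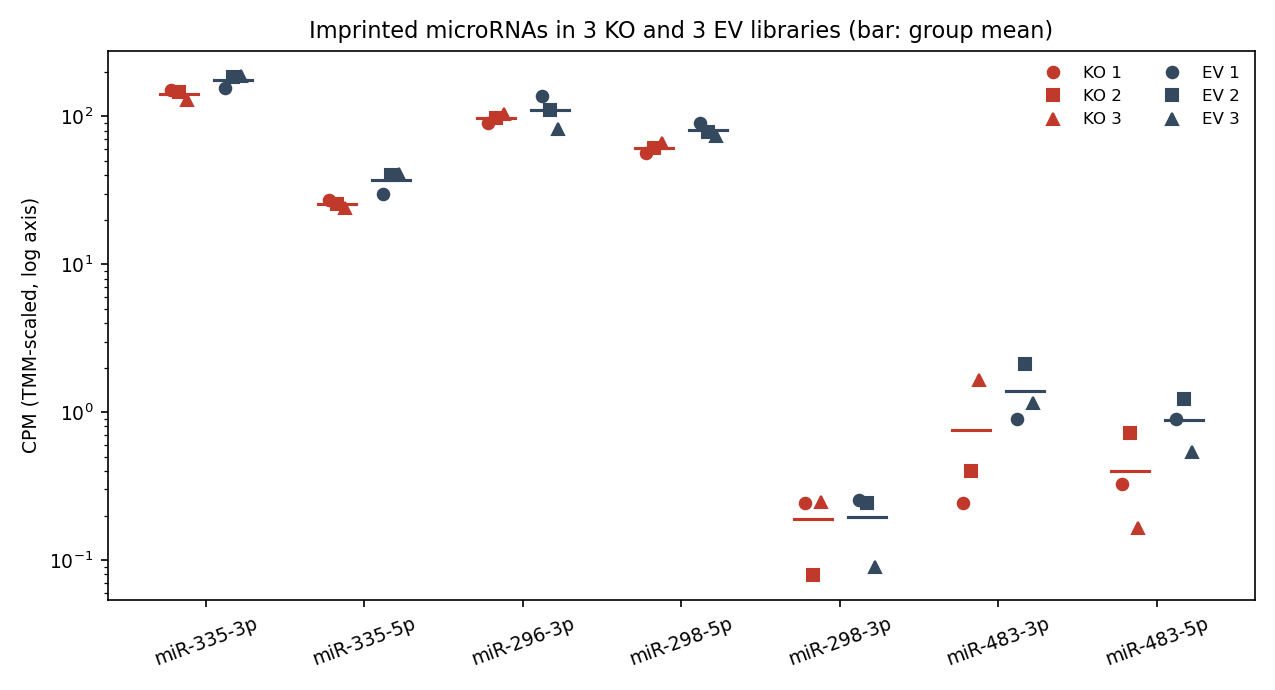
Level of each imprinted microRNA in CPM on a log axis, with 1 point per library (KO red, EV dark blue, symbol by replicate number) and a bar at the group mean. The KO points lie below the EV points for miR-335-3p, miR-335-5p and miR-298-5p, and the groups overlap for the other 4 microRNAs.

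KO libraries had lower readings than EV libraries for both arms of miR-335 and for miR-298-5p, without passing the main test. KO was compared with EV by the edgeR quasi-likelihood F test, two-sided, over all 460 microRNAs that passed the filter, with Benjamini-Hochberg adjustment, and a microRNA was called at an adjusted p under 0.05. Of the 5 members tested, 0 were called, against 7.61% of all tested microRNAs called in either direction and 2.61% called as lower in KO (edgeR). At an unadjusted p under 0.05 there were 3 of the 5 members and 106 of the 460 microRNAs. The log2 change of KO over EV was below 0 for all 5, with a median of -0.40. Over all 460 the median was -0.01, with a range from -0.59 (5th percentile) to 0.62 (95th percentile). Of the 5, miR-483-3p passed the filter mainly through EV, so its direction is not counted as support. The direction of miR-296-3p rested on EV 1. For 3 of the 5, all 3 KO values lay below all 3 EV values, as they did for 13.9% of all tested microRNAs. As 2 of these 3 are arms of 1 hairpin, the 3 are not independent.

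**Figure D2:**
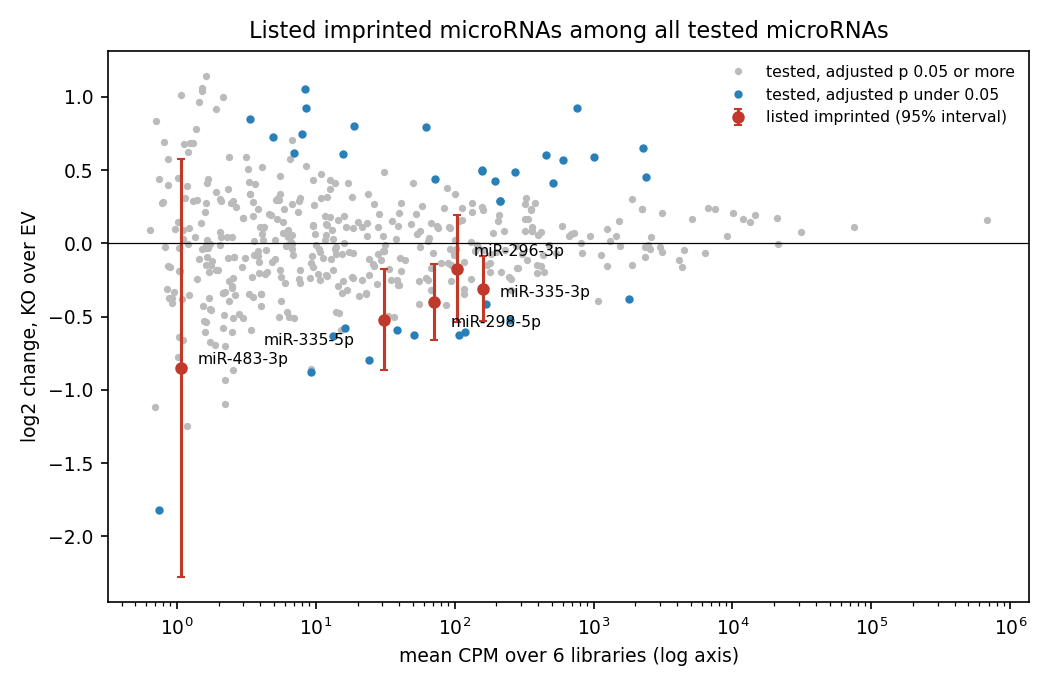
Log2 change of KO over EV against mean CPM (log axis) for the 460 tested microRNAs, each point 1 microRNA, blue where the adjusted p was under 0.05. The 5 imprinted members, in red with 95% intervals, all have log2 changes below 0, and the intervals of miR-296-3p and miR-483-3p include 0.

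miR-335-5p, described in human breast cancer cells as a suppressor of metastasis, had 27.3, 25.5 and 24.1 CPM in KO 1, KO 2 and KO 3, against 29.9, 39.8 and 40.7 CPM in EV 1, EV 2 and EV 3. The groups did not overlap, EV 1 lay close to the KO libraries, and the KO libraries were close together. The means were 25.6 ± 1.63 CPM in KO and 36.8 ± 6.01 CPM in EV (SD, n = 3 each), and the log2 change was -0.52 (SE 0.15, 95% interval -0.86 to -0.18, edgeR adjusted p = 0.0688). Scaled by library totals alone the values were 25.1, 25.2 and 22.8 per 1000000 in KO and 36.6, 41.3 and 37.4 in EV, where EV 1 no longer lay near KO. Without EV 1 the log2 change was -0.65 and miR-335-5p was called (edgeR adjusted p = 0.0247), as were 1.47% of the microRNAs tested in that fit as lower in KO.

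miR-335-3p, the arm that gave most of the reads of the Mest hairpin, had 151, 147 and 128 CPM in KO 1, KO 2 and KO 3, against 156, 184 and 188 CPM in EV 1, EV 2 and EV 3. KO again lay below EV in every library, with KO 1 and EV 1 nearly level. The means were 142 ± 11.9 CPM in KO and 176 ± 17.3 CPM in EV (SD, n = 3 each). The log2 change was -0.31 (SE 0.10, 95% interval -0.53 to -0.09, edgeR adjusted p = 0.0921). By library totals alone the values were 139, 145 and 121 per 1000000 in KO and 191, 190.4 and 173 in EV. In CPM, both arms of miR-335 were highest in EV 3, the EV library with the most miR-451a. The KO 1, KO 2 and KO 3 levels of the neural microRNA miR-9-5p were 19.1, 57.1 and 15.2 CPM, against 11.3, 32.6 and 51.4 CPM in EV 1, EV 2 and EV 3. The endothelial miR-126a-3p stood at 31.7 to 31.9 CPM in KO, against 34.7, 33.5 and 39.4 CPM in EV 1, EV 2 and EV 3. The other listed endothelial microRNA, miR-126a-5p, overlapped between the groups, at 2.87 to 3.57 CPM in KO and 2.55 to 3.10 CPM in EV. The 3 analysed of the 4 listed red-blood-cell microRNAs summed to 5.92 to 77.8 CPM in KO and 8.73 to 68.0 CPM in EV, with miR-451a present in every library, and their part in the miR-335 values was not tested. Summed levels did not overlap between the groups for the muscle, pancreas and endothelial lists. Among all tested single microRNAs, KO lay below EV without overlap for 13.9% and above EV for 15.2%. The 3 listed muscle microRNAs summed to 20.9 to 24.9 CPM in KO and 26.2 to 27.2 CPM in EV. Most of that sum was miR-206-3p, while miR-1a-3p was higher in KO (1.75 to 2.35 CPM) than in EV (0.828 to 1.25 CPM). Neither microRNA was called (edgeR adjusted p = 0.169 for miR-206-3p and 0.0657 for miR-1a-3p). The 2 listed pancreas microRNAs, mostly miR-217-5p, summed to 10.7 to 12.7 CPM in KO and 4.33 to 6.60 CPM in EV. miR-217-5p was called as higher in KO (log2 change 1.05, edgeR adjusted p = 0.00992). Of all tested microRNAs, 7.61% were called in either direction. The endothelial sums were 34.7 to 35.4 CPM in KO and 36.6 to 42.1 CPM in EV. The 1 listed liver microRNA was near the detection limit, at 0.638 to 3.24 CPM in KO and 0.408 to 0.637 CPM in EV. Its lowest KO value and its highest EV value were nearly level, so it is not read as separating the groups. The part of these in the members' values was not tested either. Without EV 3 and KO 2 the log2 change was -0.43 for miR-335-5p (edgeR adjusted p = 0.0572) and -0.28 for miR-335-3p (edgeR adjusted p = 0.111).

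The 2 arms of the Mest hairpin come from 1 precursor, and the share of its reads on the 5p arm was 15.3%, 14.8% and 15.8% in KO 1, KO 2 and KO 3, against 16.1%, 17.8% and 17.8% in EV 1, EV 2 and EV 3. The 95% exact binomial intervals, which cover counting error only, overlapped for every pair of a KO and an EV library but 1. Those of KO 2 (13.3% to 16.391%) and EV 2 (16.394% to 19.3%) just failed to meet. KO 1 had 13.9% to 16.9% and EV 1 had 14.8% to 17.5%. The mean share was 15.3% ± 0.484 in KO and 17.2% ± 1.00 in EV (SD, n = 3 each; exact permutation test, two-sided, p = 0.10, the smallest that 3 against 3 can give). The test of arm against arm in their change (limma diffSplice on voom values) gave -0.19 for 5p minus 3p on the log2 scale (unadjusted p = 0.285, limma adjusted p = 0.998). That test called 0 of the 133 hairpins with both arms tested, or 0%, and 6 had an unadjusted p under 0.05.

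miR-298-5p, a Gnas-region microRNA that targets Bace1 in mouse, had 56.8, 60.6 and 65.5 CPM in KO 1, KO 2 and KO 3, against 90.1, 78.3 and 73.3 CPM in EV 1, EV 2 and EV 3. The groups did not overlap, and EV 1 was the highest library. The means were 61.0 ± 4.35 CPM in KO and 80.6 ± 8.62 CPM in EV (SD, n = 3 each), which gave a log2 change of -0.40 (SE 0.12, 95% interval -0.66 to -0.14, edgeR adjusted p = 0.0672). By library totals alone the values were 52.3, 59.7 and 61.9 per 1000000 in KO and 110.5, 81.1 and 67.4 in EV. Without EV 3 miR-298-5p was called at -0.47 (edgeR adjusted p = 0.0258), as were 3.95% of the microRNAs tested there as lower in KO, and without EV 1 it stood at -0.31 (edgeR adjusted p = 0.159).

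The other arm, miR-298-3p, had 3, 1 and 3 reads in KO 1, KO 2 and KO 3, against 4, 3 and 1 reads in EV 1, EV 2 and EV 3, too few for a comparison. The 5p arm thus gave 99.6% to 99.9% of the reads of this hairpin in KO and 99.7% to 99.9% in EV.

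miR-296-3p, cut from the neighbouring hairpin 378 bp away, had 89.7, 97.8 and 104 CPM in KO 1, KO 2 and KO 3, against 137, 109.9 and 82.3 CPM in EV 1, EV 2 and EV 3. The groups overlapped, since EV 3 was the lowest of the 6 libraries while EV 1 was the highest. The means were 97.2 ± 7.19 CPM in KO and 109.6 ± 27.1 CPM in EV (SD, n = 3 each), for a log2 change of -0.17 (SE 0.16, 95% interval -0.54 to 0.19, edgeR adjusted p = 0.551). The direction rested on EV 1, without which the log2 change was 0.019 (edgeR adjusted p = 0.970). Without EV 3 and KO 2 it was -0.34 (edgeR adjusted p = 0.0495), with miR-298-5p at -0.46 (edgeR adjusted p = 0.0141), where 7.23% of the microRNAs tested were called as lower in KO.

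Reads of miR-298-5p per read of miR-296-3p were nearly constant in KO, at 0.634, 0.620 and 0.630 in KO 1, KO 2 and KO 3, against 0.660, 0.712 and 0.892 in EV 1, EV 2 and EV 3. The ratio needs no scaling between libraries, and every KO value lay below every EV value. The mean was 0.628 ± 0.00718 in KO and 0.755 ± 0.121 in EV (SD, n = 3 each; exact permutation test, two-sided, p = 0.10, the smallest that 3 against 3 can give). The ratio was examined after the values had been seen. EV 3 held the highest ratio, and EV 1 was close to KO. No counting interval was computed for the ratio, so the closeness of the KO values was not set against counting error.

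**Figure D3:**
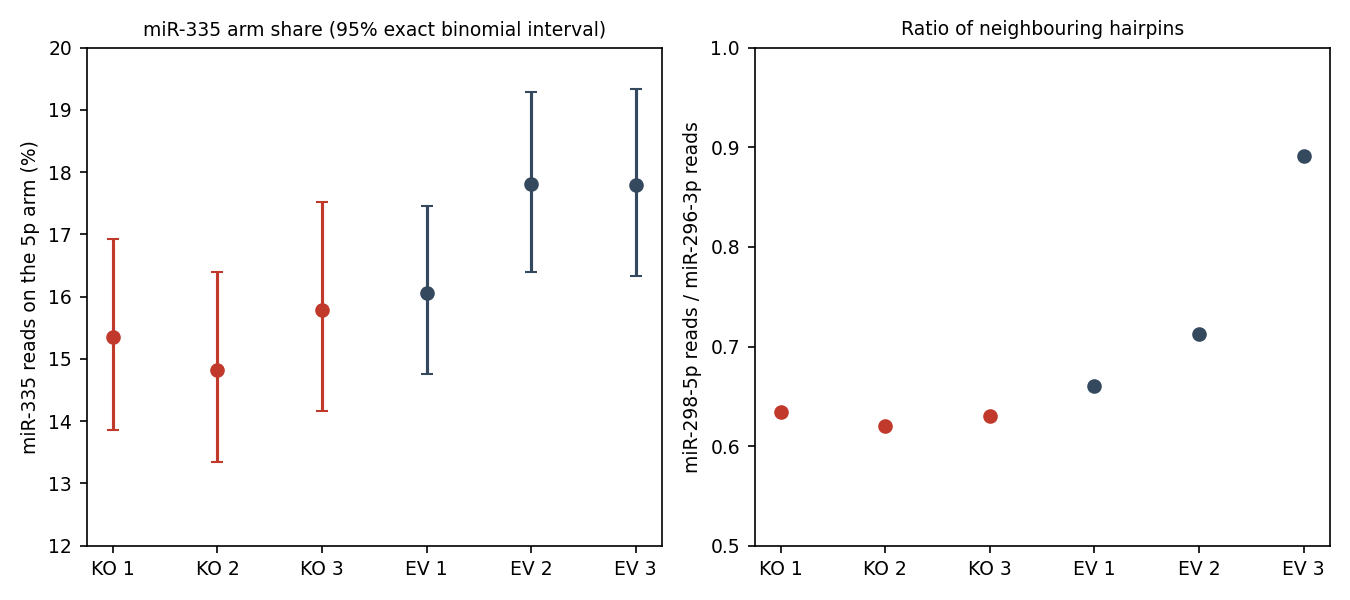
Left, share of miR-335 reads on the 5p arm in percent for each library, with 95% exact binomial intervals and an axis that starts at 12%. Right, reads of miR-298-5p divided by reads of miR-296-3p for each library, on an axis that starts at 0.5; the 3 KO libraries lie between 0.620 and 0.634 and the 3 EV libraries between 0.660 and 0.892.

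The Igf2 microRNAs were too rare for a firm comparison. miR-483-3p, which limits lipid storage in adipocytes of rat and human, had 3, 5 and 20 reads in KO 1, KO 2 and KO 3, against 14, 26 and 13 reads in EV 1, EV 2 and EV 3. KO 3 lay among the EV libraries and the groups overlapped. The fitted log2 change was -0.85 (SE 0.64, 95% interval -2.28 to 0.58, edgeR adjusted p = 0.464) and, without KO 3, -2.06 (edgeR adjusted p = 0.118). Of the KO libraries KO 3 alone reached 10 reads, so miR-483-3p passed the filter mainly through EV, and without KO 3 only through EV. Its value without KO 3 is therefore not counted as support. miR-483-5p, the other arm, had 4, 9 and 2 reads in KO 1, KO 2 and KO 3, against 14, 15 and 6 reads in EV 1, EV 2 and EV 3, and did not pass the filter. KO 2 lay above EV 3, so these groups overlapped too. Without the filter the fit for miR-483-5p gave -1.15 on the log2 scale (SE 0.57, edgeR adjusted p = 0.302). Without EV 3 and KO 2 it cleared the minimum count of 10 only through EV, with 4 and 2 reads in KO 1 and KO 3, against 14 and 15 reads in EV 1 and EV 2. The filter thus let it in only where EV was high, so its call there (log2 change -2.05, SE 0.74, edgeR adjusted p = 0.0456) is not counted as support. On these few reads the 2 arms ordered the KO libraries differently. KO 3 had the fewest 5p reads and, among the KO libraries, the most 3p reads. The 5p share was 9.09% there (95% exact binomial interval 1.12% to 29.2%), against 57.1% in KO 1 (18.4% to 90.1%) and 64.3% in KO 2 (35.1% to 87.2%). The intervals of KO 1 and KO 3 overlapped, and those of KO 2 and KO 3 did not.

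Whether the 3 non-overlapping members passed depended on the test. In the authors' deposited table of 78 microRNAs, 36 of them lower and 42 higher in KO, 3 of the 7 members are listed as lower, with log2 changes of -0.52 for miR-335-5p (adjusted p = 0.00349), -0.41 for miR-298-5p (adjusted p = 0.00384) and -0.32 for miR-335-3p (adjusted p = 0.0171). DESeq2 on the same filtered counts also called these 3, with adjusted p of 0.00941, 0.0127 and 0.0412, while calling 4.35% of all tested microRNAs as lower in KO, and with a local dispersion trend it called the same 3 and 5.65%. edgeR without the filter called the same 3 and 2.72% of all 1028 rows, and when 10 CPM or more was required in 3 libraries it called miR-335-5p and miR-298-5p and 7.6%. limma-voom called miR-298-5p (adjusted p = 0.0492) and 3.26%.

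**Figure D4:**
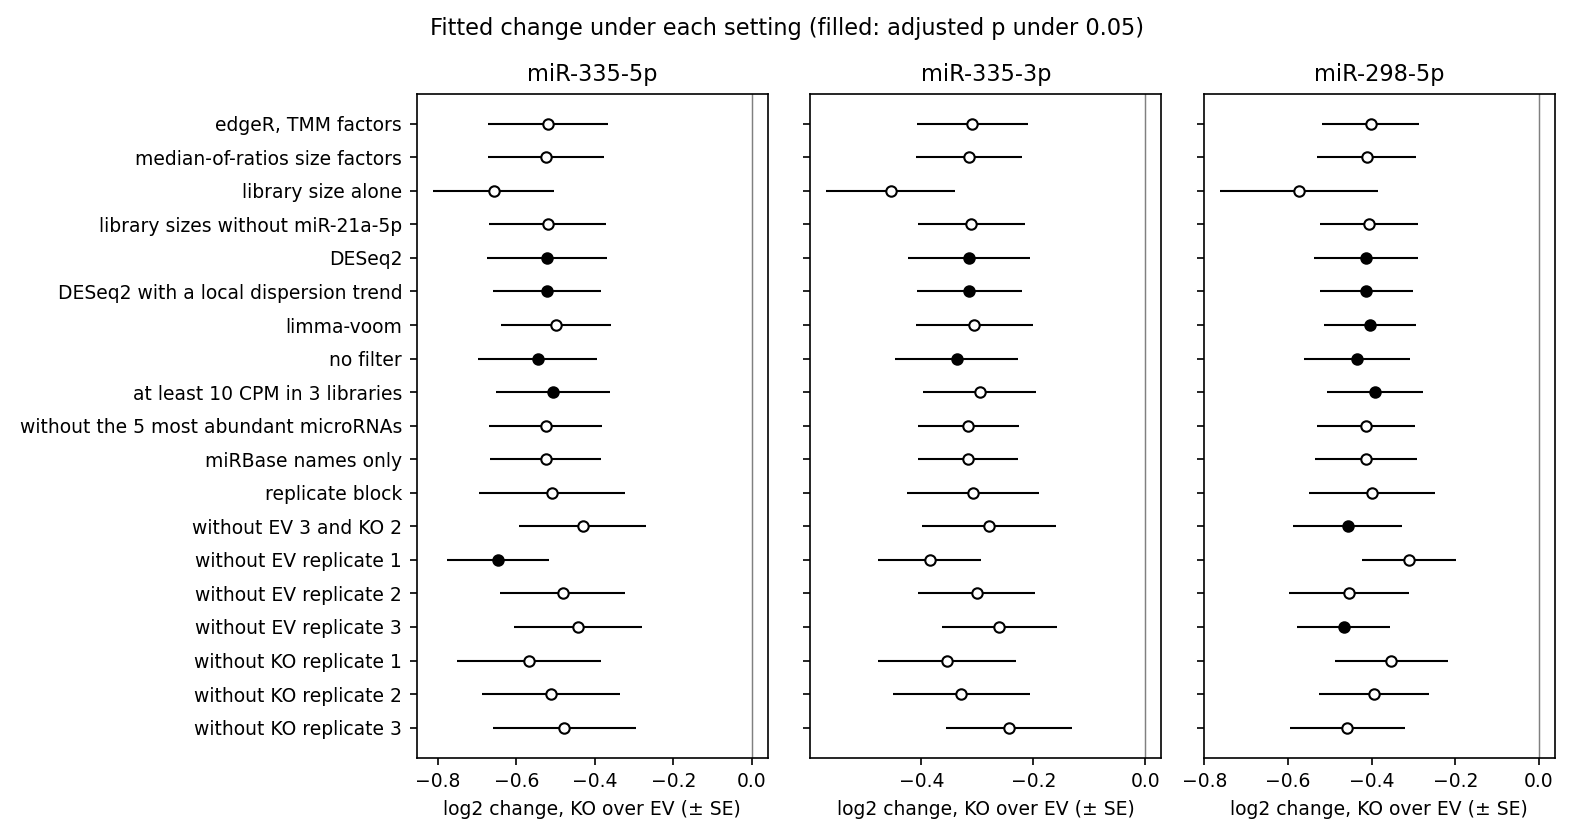
Log2 change of KO over EV (point, with SE as a bar) for miR-335-5p, miR-335-3p and miR-298-5p in the edgeR fit and under 18 other settings, 1 per line, filled where the adjusted p was under 0.05. All points lie below 0, from -0.66 to -0.24, and filled points occur for each of the 3 microRNAs under some settings only.

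For the most abundant tested arm of each hairpin, which leaves out miR-335-5p, the nearest microRNAs outside the list across the 6 libraries were those with the smallest root mean square difference of centred log2 CPM. For miR-335-3p they were miR-1839-5p, miR-382-3p and miR-183-5p (differences of 0.071, 0.071 and 0.084, against a median of 0.291 over all others). For miR-298-5p they were miR-671-3p, miR-433-3p and miR-1981-5p (0.070, 0.083 and 0.088, median 0.316), and for miR-296-3p miR-143-5p, miR-540-3p and miR-744-5p (0.087, 0.097 and 0.102, median 0.330). For miR-483-3p they were miR-341-5p, miR-667-3p and miR-3057-5p, at 0.626, 0.668 and 0.706 (median 1.06), as its own values scatter more. Of these 12 names, 5 belong to the Dlk1-Dio3 list, which makes up 17.6% of the 455 tested microRNAs outside the members. That share is not a fair background for the 5. The members were all below 0 and so were 72 of the 80 tested Dlk1-Dio3 microRNAs, so picking by likeness favours that list. Of these nearest microRNAs miR-183-5p alone was called by edgeR, at -0.38 on the log2 scale (adjusted p = 0.0201).

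The other imprinted microRNAs of the table gave a background of both directions. Of all 460 tested microRNAs, 12 (2.61%) were called as lower in KO and 23 as higher. Of 80 tested Dlk1-Dio3 microRNAs, 2 were called as lower in KO and 0 as higher, with calls as lower thus near the share over all. Their median log2 change was -0.24, and KO lay below EV without overlap for 28, against 13.9% of all tested microRNAs. Of 22 tested Sfmbt2 microRNAs, many with near-identical sequences, 3 were called as higher in KO and 0 as lower, with a median of 0.29, and KO lay above EV without overlap for 5, against 15.2% of all tested microRNAs. These lists were set beside the members as a description, and the difference between lists was not tested.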

How the data were processed

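Per the labels' protocols, RNA from cultured cells went through NEBNext small-RNA library preparation (3′ then 5′ adaptor ligation, PCR, gel selection). Bowtie, mm10 and DESeq 1.8.3 are named per the submitters' processing notes, and the handling of multi-mapping reads is unknown here. The authors deposited read counts per mature microRNA and TPM (counts scaled to the library total, with no length term, not used here). The authors' deposited table gives group means of normalized counts (a signal without spread), log2 fold changes, p-values and adjusted p-values.

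From the whole table of 1028 rows, the 460 that passed the filter were fitted with edgeR 4.0.16 in R 4.3.3 (TMM, filterByExpr with minimum count 10 and minimum total 15, quasi-likelihood F test, Benjamini-Hochberg at 0.05); standard errors are the log2 change over the square root of F. Arms were compared with limma 3.58.1 (voom, diffSplice). The log2 CPM for nearest patterns used a prior of 0.5 reads. Alternatives included DESeq2 1.42.0. Both fits were tested on simulated data. The named microRNAs are all rows matching the rule, the 3 nearest to the most abundant tested arm of each hairpin, seed sharers and the marker microRNAs. The members, lists, tests and alternatives were chosen with earlier results of these data known. Sfmbt2 names annotated elsewhere were left out after the files were seen. Reads carry no molecular identifiers that the labels mention, so counting intervals cover counting error only. No pair within a group had counts equal to within Poisson noise (chi-square), so each library was counted once, which leaves unknown whether they came from separate cultures.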

Additional observations from a re-analysis of the deposited data

How the results depend on the processing

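All 18 other settings kept the log2 changes of miR-335-5p, miR-335-3p and miR-298-5p below 0. So did the 17 that gave a value for miR-483-3p, which reached 10 reads in KO 3 alone of the KO libraries. miR-296-3p was above 0 only without EV 1 (0.019). The number of all microRNAs called was 35 in the edgeR fit, 5 with library size alone, 66 with DESeq2 and a local trend, 56 without the filter, 88 without EV 3 and KO 2, and 15 to 59 with 1 library left out. The number of members called was 0 in the edgeR fit, 3 with DESeq2, with its local trend, without the filter and without EV 3 and KO 2 (there including miR-483-5p, which passed the filter only through EV), 2 with the 10 CPM filter, 1 with limma-voom, and 0 to 1 with 1 library left out. The members newly called had log2 changes, for miR-335-5p, of -0.52 with DESeq2 under either trend, -0.55 without the filter and -0.51 with the 10 CPM filter. For miR-335-3p they were -0.31 with DESeq2 under either trend and -0.34 without the filter. For miR-298-5p they were -0.41 with DESeq2 under either trend, -0.40 with limma-voom, -0.43 without the filter, -0.39 with the 10 CPM filter and -0.46 without EV 3 and KO 2, and for miR-296-3p -0.34 without EV 3 and KO 2. The cause of these differences was not tested.

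With 1 library left out the log2 change ran from -0.65 to -0.44 for miR-335-5p, -0.39 to -0.24 for miR-335-3p, -0.47 to -0.31 for miR-298-5p, -0.34 to 0.019 for miR-296-3p and -2.06 to -0.43 for miR-483-3p. The -2.06 came without KO 3, where miR-483-3p passed the filter only through EV. Library size alone, which moved the median of all microRNAs by -0.15, gave -0.66, -0.45 and -0.57 for miR-335-5p, miR-335-3p and miR-298-5p, not called. The replicate numbers were not shown to pair libraries (correlations of deviations 0.34, 0.05 and -0.19). With a replicate block 34 microRNAs and 0 members were called, with log2 changes of -0.51, -0.31, -0.40, -0.15 and -0.98 for miR-335-5p, miR-335-3p, miR-298-5p, miR-296-3p and miR-483-3p. The arm test called 0 listed hairpins in every setting run. Depth limits miR-483 and miR-298-3p, which had at most 26 and 4 reads in a library.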
